A study of Mus musculus with 12 samples.

Results

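The T and NK cell genes Cd3d, Cd3e, Cd3g, Lck, Cd8a, Nkg7, Gzma, Gzmb, Klrb1c and Il7r, 10 of the 24445 gene symbols counted, were followed in macrophages (Mφ) sorted from mouse hearts. They were chosen as textbook markers of lymphocytes that a Mφ sort should largely lack, and on their normalized counts in these same libraries, so that their differences between groups are given as descriptions and no p-value is printed for any of them. RNA came from 12 adult male C57BL6/J mice, 4 in each of 3 groups and 1 library per mouse. Control mice (Ct) carried a saline pump. By the methods pumps stayed for 14 or 28 days, and the labels do not say which time a given Ct mouse had. Mice with early concentric hypertrophy (ECH) were infused for 14 days with 30 mg/kg/day of isoproterenol, which activates β-adrenergic receptors, and mice with heart failure (HF) for 28 days with the same dose. All hearts were digested, enriched for leukocytes with CD45 beads and gated on CD11b, with doublets and dead cells excluded, before CD14/CD64-positive cells were collected. No antibody against a T or NK cell antigen is listed for this sort.

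T cells recognise antigen through the T cell receptor, whose signal is carried into the cell by the CD3 chains and the kinase LCK. NK cells and cytotoxic T cells kill through granules loaded with granzymes, and mouse NK cells carry NK1.1, the product of Klrb1c. The IL-7 receptor, made of the α chain encoded by Il7r and the common γ chain, sustains lymphocytes, and its α chain also serves the receptor for TSLP. In the heart these lymphocytes are a minority beside the resident Mφ.

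The promoters of the genes were set side by side because most of the genes varied together between mice. All 10 genes had an entry among RefSeq promoters of GRCm38.p6, and the 250 bases before each start were searched on both strands for 3 short motifs. Lck had 2 entries, of which only the first was searched. The core of the RUNX motif, TGTGGT on either strand, was in 5 of 10 promoters (Lck, Nkg7, Gzma, Gzmb, Klrb1c), against 14.0% of 32851 promoters. An ETS motif, AGGAAG on either strand, was in 6 of 10 (Cd3d, Cd3e, Lck, Nkg7, Klrb1c, Il7r), against 29.5%. A cAMP response element motif, TGACG on either strand, was in Cd3e, 1 of 10, against 17.8%. The last 100 bases before the RefSeq start, 5′ to 3′ on the strand of the gene, are shown for 4 genes with the RUNX core, for Cd3e, which had the cAMP response motif, and for Il7r, whose level went the other way. RefSeq and GENCODE starts differ for some genes. By GENCODE, the shown bases of Klrb1c and Il7r lie within the gene but in no exon, and 16 of those of Cd3e lie in an exon. Capitals mark motifs that lie wholly within the shown bases, so that 2 ETS matches of Klrb1c cut by the 5′ edge are in lower case, and the shown length was chosen after the matches were seen.
Lck (chr4:129573642-129573741, minus strand): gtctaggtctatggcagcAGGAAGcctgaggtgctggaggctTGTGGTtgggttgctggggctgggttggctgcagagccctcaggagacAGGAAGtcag
Gzma (chr13:113100982-113101081, minus strand): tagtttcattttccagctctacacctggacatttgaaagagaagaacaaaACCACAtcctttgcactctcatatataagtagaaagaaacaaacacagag
Gzmb (chr14:56262335-56262434, minus strand): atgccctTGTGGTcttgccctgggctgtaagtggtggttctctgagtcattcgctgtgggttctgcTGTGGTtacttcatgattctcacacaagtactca
Klrb1c (chr6:128788642-128788741, minus strand): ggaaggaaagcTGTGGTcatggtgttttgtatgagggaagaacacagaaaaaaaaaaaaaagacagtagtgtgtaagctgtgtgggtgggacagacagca
Cd3e (chr9:45009612-45009711, minus strand): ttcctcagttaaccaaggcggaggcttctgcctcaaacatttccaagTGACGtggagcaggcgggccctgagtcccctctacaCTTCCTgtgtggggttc
Il7r (chr15:9529877-9529976, minus strand): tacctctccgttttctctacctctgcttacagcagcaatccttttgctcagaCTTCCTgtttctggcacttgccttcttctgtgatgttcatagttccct
A match is a run of letters, not a bound site. RUNX and ETS letters stood together in the searched bases of Lck, Nkg7 and Klrb1c, and none of the 3 motifs was in those of Cd3g and Cd8a. Cd3g and Cd3d lie head to head on chromosome 9 with starts 1355 bases apart, and the 3 CD3 genes span 40056 bases, those between them included.

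The sort held Mφ in every library. Adgre1 (the F4/80 antigen) was between 579 and 1356 CPM, Fcgr1 (CD64) between 71.5 and 182 CPM, Csf1r between 2620 and 5297 CPM and Lyz2 (lysozyme) between 12791 and 21913 CPM. All levels are TMM-normalized CPM, counts relative to the scaled library size. The totals were between 88466559 and 111180291 counts, so that each T or NK cell gene rested on at most 4030 counts in a library. HF 1 and Ct 2 had the fewest genes detected, 13600 and 14489 against 15054 or more elsewhere, and 188 and 127 genes were at 0 there although each other library of the group held at least 100 counts. Library numbers in the labels allow sets to be inferred, with Ct 1 to 4 and ECH 1 and 2 in set A and HF 1 to 4 and ECH 3 and 4 in set B, although neither labels nor paper state them. From the Ct and HF libraries alone, set and group cannot be told apart, and a fit with both terms rests on the ECH libraries.

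The CD3 genes, which encode the signalling chains of the T cell receptor, were low in every library and lower on average in ECH and HF than in Ct Mφ. Cd3d (chromosome 9, 44981786 to 44987339, plus strand) was at 2.57, 11.5, 2.31 and 5.26 CPM in Ct 1 to 4, at 1.79, 0.669, 0.431 and 2.09 CPM in ECH 1 to 4, and at 0.153, 2.52, 1.64 and 0.474 CPM in HF 1 to 4. All ECH libraries lay below all Ct libraries, while HF 2 reached into the Ct range. The log2 fold change was -2.12 (SE 0.86) for ECH against Ct and -2.17 (SE 0.86) for HF against Ct. Cd3e (chromosome 9, 44998740 to 45009627, minus strand) was at 1.78, 5.69, 2.26 and 8.82 CPM in Ct, at 1.58, 1.65, 0.449 and 1.31 CPM in ECH, and at 1.19, 2.61, 2.27 and 1.53 CPM in HF. Again no ECH library reached the Ct range, by a gap of less than the spread within either group, and HF 2 and HF 3 overlapped with Ct. For Cd3e the log2 fold change was -1.89 (SE 0.62) in ECH and -1.29 (SE 0.61) in HF. An antisense gene overlaps its exons, and the libraries carry no strand, so its reads cannot be told from those of Cd3e.

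Cd3g (chromosome 9, 44969572 to 44980431, minus strand) was at 3.55, 13.4, 1.05 and 6.03 CPM in Ct, at 4.34, 0.543, 0.619 and 1.75 CPM in ECH, and at 2.80, 2.14, 2.37 and 1.58 CPM in HF. Here the groups overlapped, since Ct 3 was below every HF library and ECH 1 was above Ct 1. The log2 fold changes were -1.73 (SE 0.77) and -1.43 (SE 0.77), and without Ct 2 they were -0.97 and -0.67. In all 3 genes Ct 2 and Ct 4 were the highest Ct libraries. Over the 3 genes, the summed level lay from 5.62 to 30.6 CPM in Ct, from 1.499 to 7.71 CPM in ECH and from 3.58 to 7.27 CPM in HF.

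Lck (chromosome 4, 129548344 to 129573641, minus strand), the kinase that starts T cell receptor signalling, was at 6.88, 30.6, 3.41 and 15.7 CPM in Ct, at 6.36, 3.15, 0.736 and 2.61 CPM in ECH, and at 0.823, 4.26, 3.60 and 2.29 CPM in HF. Ct 2 and Ct 4 stood high, and Ct 3 lay among the ECH and HF libraries. The log2 fold change was -2.14 (SE 0.75) in ECH and -2.36 (SE 0.75) in HF, and without Ct 2 it was -1.43 and -1.65. Cd8a (chromosome 6, 71373427 to 71379173, plus strand), a chain of the coreceptor of cytotoxic T cells, was at 1.66, 0.965, 1.32 and 3.96 CPM in Ct, at 2.28, 1.74, 0.745 and 0.337 CPM in ECH, and at 1.28, 0.720, 1.35 and 0.652 CPM in HF. It did not share the high value of the other T cell genes in Ct 2, and the 3 groups overlapped. Its log2 fold changes were -0.63 (SE 0.71) and -0.98 (SE 0.71).

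**Figure D1:**
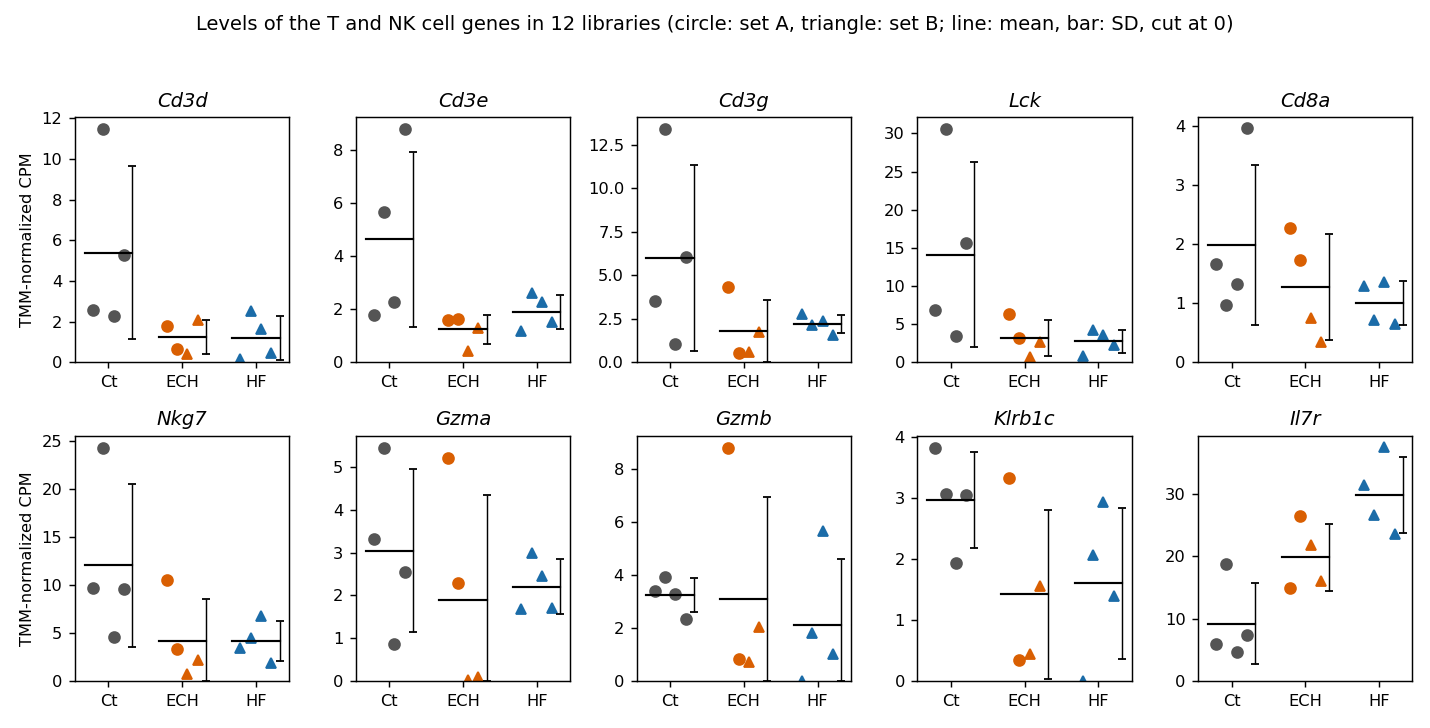
TMM-normalized CPM (vertical axes, from 0, scaled by gene) of the 10 genes in each of the 12 libraries, by group. Circles are libraries of the inferred set A and triangles of set B, lines are group means and bars the SD (n = 4), cut at 0. Ct 2 reaches 30.6 CPM for Lck, while all HF libraries of Il7r, from 23.5 CPM, lie above all Ct libraries.

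The genes of NK cells and killing were less uniform. Nkg7 (chromosome 7, 43437073 to 43438249, plus strand), a protein of cytotoxic granules, was at 9.64, 24.3, 4.58 and 9.61 CPM in Ct, at 10.5, 3.32, 0.772 and 2.14 CPM in ECH, and at 3.41, 4.52, 6.81 and 1.90 CPM in HF. ECH 1 was as high as Ct 1, and the other ECH libraries were below all of Ct. Its log2 fold change was -1.53 (SE 0.71) in both ECH and HF, a level 2.88 and 2.89 times lower. Without Ct 2 it was -0.93 in both, and without ECH 1 it was -2.53 in ECH. Gzma (chromosome 13, 113093825 to 113100981, minus strand), which encodes granzyme A, was at 3.31, 5.46, 0.859 and 2.55 CPM in Ct, at 5.22, 2.28, 0.0179 and 0.0864 CPM in ECH, and at 1.67, 2.99, 2.45 and 1.70 CPM in HF. The ECH group split, with 527 and 235 counts in ECH 1 and 2 and only 2 and 10 counts in ECH 3 and 4. The log2 fold changes against Ct were -0.68 (SE 1.13) and -0.47 (SE 1.12), and the groups overlapped.

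Gzmb (chromosome 14, 56258838 to 56262260, minus strand), which encodes granzyme B, was at 3.40, 3.91, 3.27 and 2.35 CPM in Ct, at 8.80, 0.834, 0.718 and 2.04 CPM in ECH, and at 0, 1.80, 5.65 and 1.01 CPM in HF. The Ct libraries were close together here, ECH 1 and HF 3 lay above them and all others below. With log2 fold changes of -0.06 (SE 1.17) and -0.61 (SE 1.18) the group means were apart by less than the spread. Klrb1c (chromosome 6, 128778485 to 128789215, minus strand) was at 3.83, 3.07, 1.93 and 3.05 CPM in Ct, at 3.33, 0.349, 0.440 and 1.56 CPM in ECH, and at 0, 2.07, 2.93 and 1.39 CPM in HF. Most ECH and HF libraries were below Ct, with ECH 1, HF 2 and HF 3 inside its range. Its log2 fold changes were -1.06 (SE 1.13) and -0.89 (SE 1.13). HF 1 had no count of Gzmb or Klrb1c, which allows up to 0.0287 CPM of each by counting error alone. Granzyme and Klr genes belong to families of similar sequence, and exons of Klrb1c overlap another gene, so reads may have been split between copies and these values are uncertain.

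The one gene with the opposite course was Il7r (chromosome 15, 9505788 to 9530176, minus strand). It was at 5.94, 18.8, 4.65 and 7.35 CPM in Ct, at 14.9, 26.5, 21.7 and 16.1 CPM in ECH, and at 31.4, 26.6, 37.5 and 23.5 CPM in HF. All HF libraries lay above all Ct libraries, and the ECH libraries lay between, with Ct 2 inside the ECH range and ECH 2 inside the HF range. The log2 fold change was 1.11 (SE 0.38) in ECH and 1.70 (SE 0.39) in HF, 2.16 and 3.24 times the Ct level, and 0.59 (SE 0.38) between HF and ECH. Ct 2, the highest Ct library for Il7r as for Lck and Nkg7, mattered to these values. Without it they were 1.73 and 2.31.

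**Figure D2:**
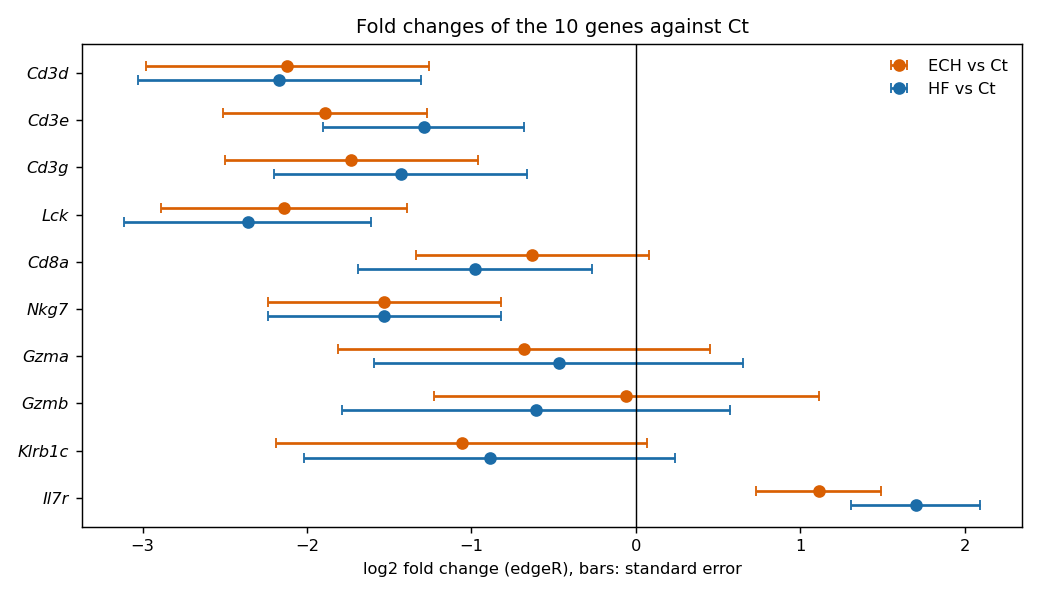
Log2 fold changes (horizontal axis) of the 10 genes for ECH against Ct and HF against Ct, with bars for the standard error of the edgeR fit. The values of 9 genes lie below 0 in both comparisons, from -0.06 to -2.36, and that of Il7r above it.

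Per kilobase of exon, the order of mean levels in Ct began with Nkg7 at 13.2 CPM per kb, Lck at 4.82, Gzma at 3.03 and Cd3d at 2.98, and ended with Klrb1c at 1.003 and Cd8a at 0.543. In HF it began with Il7r at 6.38 CPM per kb, before Nkg7 at 4.55 and Gzma at 2.19, and ended again with Cd8a at 0.275. In ECH it began with Nkg7 at 4.57 and Il7r at 4.25 CPM per kb and ended with Cd3e at 0.306. On this scale Il7r was sixth of the 10 genes in Ct and first in HF. Neighbours in these orders differed by less than the larger SD between mice, except Klrb1c and Cd8a in Ct, and Nkg7 and Gzma as well as Cd3e and Cd8a in HF.

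The median log2 fold change of the 10 genes was -1.30 for ECH against Ct and -1.13 for HF against Ct, with 9 of 10 below 0 in each, beside 0.01 and -0.01 over all 14608 genes tested. Both comparisons use the same Ct libraries. Between HF and ECH it was 0.08, beside -0.02 over all genes, with 5 genes to either side. All 10 genes passed the filter on low counts. The quasi-likelihood test of edgeR, with a call at an FDR under 0.05 and at least a 2-fold change, called 0 of the 10 in ECH against Ct, where 0.356% of all genes tested were called, 0 in HF against Ct, where 0.377% were, and 0 in HF against ECH, where 0.00% were. DESeq2 called Cd3e in ECH, 1 of 10 with 1.74% of all genes called, and Lck and Il7r in HF, 2 of 10 with 2.32% called. Between HF and ECH DESeq2 called 0 of 10, with 0.330% of all genes called.

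At an unadjusted edgeR p under 0.05, 4 of the 10 genes (Cd3d, Cd3e, Cd3g and Lck) were lower in ECH than Ct, where 5.89% of all genes were, and 1 (Il7r) was higher, where 6.03% were. In HF 2 genes (Cd3d and Lck) were lower, where 8.72% of all genes were, and 1 (Il7r) was higher, where 7.35% were. Between HF and ECH 0 were under this limit in either direction, beside 7.98% of all genes. Groups that did not overlap were found for 2 genes lower in ECH than Ct (Cd3d and Cd3e), beside 3.64% of all genes, and for 0 higher, beside 4.33%. For HF against Ct they were found for 0 genes lower, beside 4.45%, and for 1 higher (Il7r), beside 4.59%, and for HF against ECH for 0 of 10, beside 6.92%. As the genes were chosen on these counts, nothing is read from these shares.

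Single libraries moved several of these fold changes against Ct. Without Ct 2, Cd3d was at -1.44 in ECH and -1.50 in HF, and Gzma at -0.24 and -0.02. Without Ct 4, Cd3e was at -1.38 and -0.77, and Cd8a at -0.05 and -0.39. Leaving out ECH 1 put Cd3g at -2.62, Lck at -2.70, Cd8a at -1.07, Gzma at -1.94 and Klrb1c at -1.92 in ECH. Leaving out HF 1 put Gzmb at -0.19 and Klrb1c at -0.48 in HF, and leaving out HF 3 put them at -1.79 and -1.37.

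The inferred library sets bore on the direction of several of these genes. With the set as a covariate, which rests on 2 ECH libraries in each set, the median of the 10 genes was -0.75 for ECH against Ct, 0.34 in place of -1.13 for HF against Ct and 0.80 for HF against ECH. Cd3d stayed at -2.21 and Il7r at 1.83 for HF against Ct, Lck was at -0.86, Cd3e at -0.41, Cd3g at -0.40 and Klrb1c at -0.02, and Nkg7 turned to 0.71, Cd8a to 0.91 and Gzmb to 1.19. Gzma turned to 5.66, resting on the 12 counts that ECH 3 and 4 held together, and was among the 208 genes that edgeR called in that fit. Within set A alone, ECH 1 and 2 against Ct gave -2.14 for Cd3d, -1.53 for Cd3e, -1.30 for Cd3g, -1.57 for Lck and 1.17 for Il7r, with Nkg7 at -0.81, Klrb1c at -0.70, Cd8a at 0.01, Gzma at 0.30 and Gzmb at 0.57. Within set B, HF against ECH 3 and 4 gave 5.37 for Gzma, 1 of 370 genes called there, 1.51 for Nkg7, 1.11 for Cd3e, 0.91 for Cd3g, 0.89 for Cd8a, 0.71 for Lck, 0.67 for Klrb1c, 0.66 for Il7r, 0.62 for Gzmb and -0.08 for Cd3d.

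From library to library, 9 of the genes varied together. Their summed level without Il7r was 36.6, 98.9, 20.99 and 57.3 CPM in Ct 1 to 4, 44.2, 14.5, 4.93 and 13.9 CPM in ECH 1 to 4, and 11.3, 23.6, 29.1 and 12.5 CPM in HF 1 to 4. Ct 2 was among the highest 3 libraries for 8 of these 9 genes, the exception being Cd8a, and ECH 3 among the lowest 3 for 8 of 9. ECH 1 was above Ct 1 and Ct 3 in this sum and was among the highest 3 libraries for 6 of 9 genes. The T cell genes of the sum (Cd3d, Cd3e, Cd3g, Lck and Cd8a) summed to 10.4 to 62.1, 2.98 to 16.4 and 6.25 to 12.3 CPM in Ct, ECH and HF. The NK cell genes were at 10.6 to 36.8, 1.95 to 27.8 and 5.08 to 17.8 CPM.

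Over the 12 libraries, Spearman's rho of log2 CPM was above 0 in all 36 pairs of these 9 genes, with a median of 0.70 and a range of 0.22 to 0.91. The libraries share depth, sort and group, so these values are a description. The closest pairs joined T and NK cell genes as much as genes of 1 kind, with 0.91 for Lck and Nkg7, 0.90 for Cd3d and Lck, 0.88 for Gzmb and Klrb1c and 0.88 for Lck and Klrb1c. The pair of Gzmb and Klrb1c was at 0.85 without HF 1, where both were at 0. Cd8a was the loosest of the 9, with 0.22 to Cd3d and at most 0.59 to Nkg7. With group means removed, Pearson's r was above 0 in 33 of the 36 pairs, with a median of 0.53 and a range of -0.16 to 0.97. Joint variation was thus also seen between libraries of 1 group. The value of 0.97 was that of Gzmb and Klrb1c, and these values were not computed without HF 1 or Ct 2. Within ECH they also include any difference between the inferred sets.

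Il7r went against all 9 genes over the 12 libraries, with a median rho of -0.36 and a range of -0.56 (Cd3d) to -0.10 (Gzma). With group means removed it did not, at a median Pearson's r of 0.26 and with 6 of 9 values above 0.

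**Figure D3:**
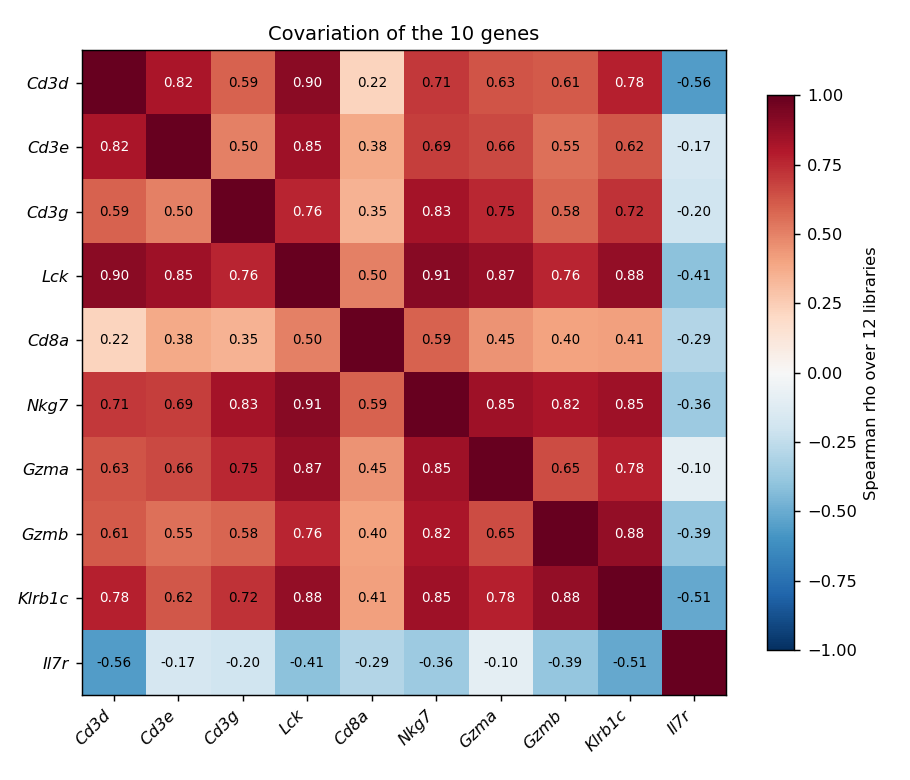
Spearman's rho over 12 libraries for each of the 45 pairs of the 10 genes, coloured from -1 (blue) to 1 (red). The block of the 9 genes is at 0.22 to 0.91, and the row of Il7r at -0.56 to -0.10.

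The genes that followed the mean log2 CPM of Cd3d, Cd3e and Cd3g most closely, over 12 libraries and outside the 10, were Tcf7 and Ptprcap (Pearson's r 0.93 each), Ets1 (0.91), Grap and Skap1 (0.90 each), Sept1, AI504432 and Ccr7 (0.89 each). Tcf7 is a transcription factor of T cells, and Ccr7 a homing receptor of lymphocytes and dendritic cells. Tcf7 had 4.56 to 19.8, 2.25 to 4.80 and 2.87 to 5.82 CPM in Ct, ECH and HF. For Ccr7 the levels were 48.6 to 164, 17.02 to 44.0 and 27.2 to 47.0 CPM, with no overlap between Ct and the other groups. Among the 10 genes, Lck had an r of 0.95 with the CD3 mean and Nkg7 0.87, whereas Klrb1c had 0.64, Gzma 0.57, Gzmb 0.55, Cd8a 0.34 and Il7r -0.37.

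Further genes of T cells and of T cell receptor signalling lay mostly below 0 without passing the test. Of 24 listed, 20 were in the files, and 19 of 20 were below 0 against Ct in both ECH and HF, with medians of -1.32 and -1.77. Some rested largely on a single Ct library. Zap70 was at 0.450, 8.71, 0.637 and 0.580 CPM in Ct 1 to 4, and Bcl11b at 0.750, 11.55, 0.667 and 1.84 CPM. Tcf7 and Cd8b1 were instead highest in Ct 4. HF 1, which had the fewest genes detected, held no count of several, among them Cd5, Zap70 and Lat. List medians without Ct 2 or with a term for the inferred set were not computed. The quasi-likelihood test of edgeR called 0 of 20 in each comparison. At an unadjusted p under 0.05 it had 6 lower in ECH (among them Cd2, Cd247, Cd8b1, Lef1 and Tcf7) and 6 lower in HF (Bcl11b, Cd247, Lat, Lef1, Tcf7 and Themis), with 0 higher and 0 between HF and ECH. Of all genes tested, 5.89% were lower in ECH and 8.72% in HF by this limit, 6.03% and 7.35% were higher, and 7.98% were under it between HF and ECH. DESeq2 called 2 in ECH (Cd8b1 and Tcf7) and 2 in HF (Cd247 and Lef1), where it called 1.74% and 2.32% of all genes, and 0 between HF and ECH. Those with the highest levels were the coreceptor gene Cd4, the adhesion receptor gene Cd2, the costimulatory receptor gene Cd28 and Tcf7. Cd4 stood at 14.9 ± 6.02 CPM (SD, n = 4) in Ct Mφ, at 14.0 ± 3.43 CPM in those of ECH and at 12.8 ± 3.13 CPM in those of HF hearts, with log2 fold changes of -0.09 and -0.22. Cd28 was also near its Ct level, at -0.43 and 0.13, whereas Cd2 was at -0.98 and -0.30. Tcf7 was at 10.5 ± 6.79, 3.27 ± 1.17 and 4.64 ± 1.40 CPM, with log2 fold changes of -1.68 (SE 0.47, edgeR FDR 0.153) and -1.17 (SE 0.46, edgeR FDR 0.245).

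Among further NK cell and cytotoxicity genes the directions were mixed. Of 24 genes, 22 passed the filter, and 14 were below 0 in ECH and 15 in HF, with medians of -0.69 and -0.53. By edgeR 0 of 22 were called in each comparison, and by DESeq2 also 0. At an unadjusted edgeR p under 0.05, 0 were lower, while 2 were higher in ECH (Klrb1b and Klrg1) and 3 in HF (Klrb1b, Klrg1 and Klrk1), and 0 were under this limit between HF and ECH. Of all genes tested, 6.03% were higher in ECH and 7.35% in HF by the same limit, so 2 and 3 of 22 were near the background. The shares of all genes that were lower were 5.89% in ECH and 8.72% in HF, and 7.98% were under the limit between HF and ECH. Klrg1 had no count in any Ct library, and the median is the same wherever above 0 its fold change is set. The highest levels were those of Sh2d1b1, an adaptor of SLAM family receptors, the receptor genes Klrk1 (NKG2D) and Klrb1b, and the chemokine gene Ccl5. Klrb1b had 4.01 ± 3.35, 9.11 ± 3.54 and 9.90 ± 3.96 CPM in Ct, ECH and HF, opposite in direction to Klrb1c of the same family. Klrk1 was at 6.28 ± 2.01, 7.09 ± 1.96 and 10.1 ± 2.14 CPM, and Sh2d1b1 and Ccl5 had log2 fold changes of -0.18 and 0.06 in ECH and of -0.23 and -0.38 in HF.

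Listed genes of the IL-7 receptor pathway, most of them no chain of the receptor, did not move with Il7r as a group. Of 12 genes, 8 were below 0 in ECH and 7 in HF, with medians of -0.11 and -0.09, and edgeR called 0 of 12 in each comparison. At an unadjusted edgeR p under 0.05, Socs1 and Tslp were lower in ECH, Mcl1, Socs1 and Tslp lower and Il2rg higher in HF, and Il2rg and Tslp higher in HF than in ECH. Over all genes tested, the shares at this limit were 5.89% lower in ECH, 8.72% lower and 7.35% higher in HF, and 7.98% in either direction between HF and ECH. Il2rg, the common γ chain, was at 139.6, 159, 153 and 149.9 CPM in Ct, at 199, 191, 140.3 and 131 CPM in ECH and at 207, 217, 229.7 and 224 CPM in HF. All HF libraries were above all others, and the log2 fold change was 0.55 (SE 0.14, edgeR FDR 0.113) against Ct, and 0.41 (SE 0.14, edgeR FDR 0.549) against ECH. Tslp, a cytokine that uses the same α chain, had 19.3 ± 4.95, 6.26 ± 2.50 and 11.6 ± 3.15 CPM in Ct, ECH and HF, with a log2 fold change of -1.62 (SE 0.34, edgeR FDR 0.0535) in ECH, and is named because DESeq2 called it there, 1 of the 12 beside 1.74% of all genes. DESeq2 called 0 of 12 in the other comparisons. The kinase gene Jak1 was at 0.25 and -0.05, the survival factor Mcl1 at -0.16 and -0.45 and Stat5b at 0.03 and -0.40 in ECH and HF. Il7 itself stayed at means of 0.705 to 0.963 CPM.

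**Figure D4:**
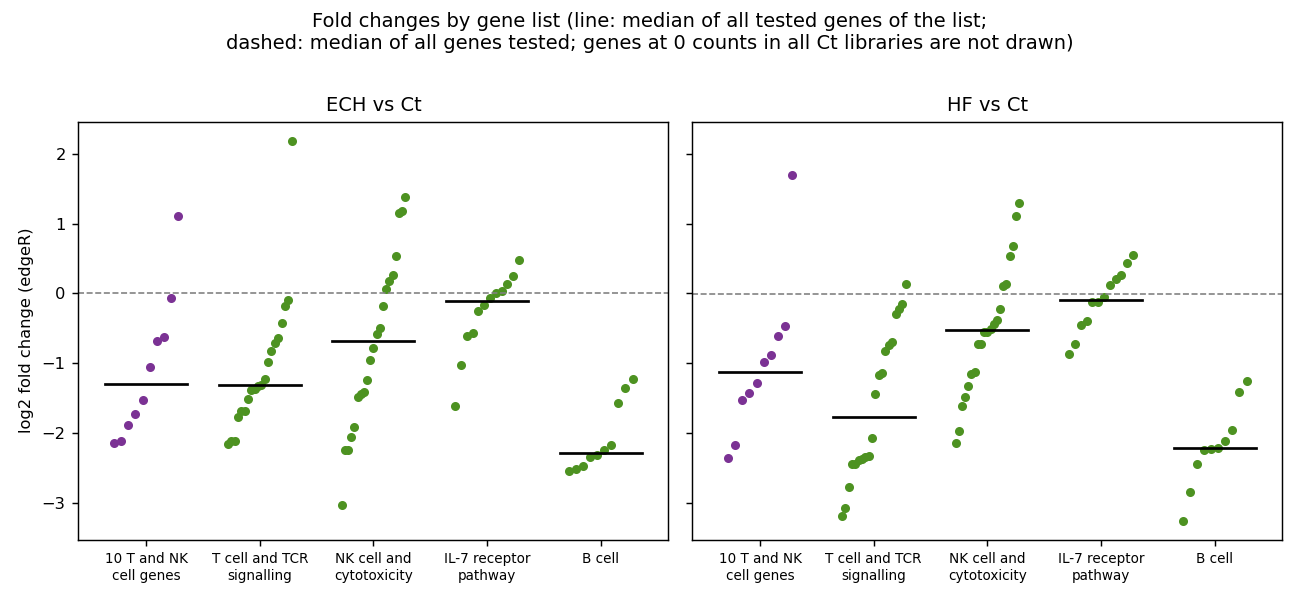
Log2 fold changes (vertical axis) of single genes by list, for ECH against Ct and HF against Ct, with list medians as lines and the median of all genes tested dashed. Klrg1, at 0 in all Ct libraries, is counted in its median but not drawn. The T cell list has medians of -1.32 and -1.77, the IL-7 receptor list of -0.11 and -0.09, and the B cell list of -2.29 and -2.22.

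Markers of another lymphocyte moved in the same libraries. All 10 genes of a B cell list were below 0 in ECH and HF, with medians of -2.29 and -2.22, and among the genes edgeR called lower was Fcmr, a receptor for IgM, in both (log2 fold changes of -2.32 and -2.24, edgeR FDR 0.0202 and 0.0284). The summed B cell level lay from 133 to 589.6, from 50.9 to 103 and from 65.4 to 101 CPM in Ct, ECH and HF, highest in Ct 2 and then Ct 4, as for the CD3 genes, and no defining marker was at 0 in all libraries. Summed neutrophil markers were at 223 to 1556, 95.3 to 592 and 67.1 to 1091 CPM, dendritic cell markers at 139 to 279, 119 to 158 and 171 to 196 CPM, and the Mφ list at 29463 to 31591, 30190 to 40587 and 31502 to 40626 CPM. The list of type 2 innate lymphoid cells, which also carry Il7r, summed to 60.3 to 77.1 CPM in Ct, 33.0 to 56.5 CPM in ECH, without overlap, and 43.5 to 66.3 CPM in HF, mostly from Il1rl1, with Il13 at 0 in all libraries. Fibroblast markers were at 31.4 to 190.5, 82.6 to 424 and 82.4 to 243 CPM, endothelial markers at 40.9 to 72.9, 42.2 to 118 and 27.6 to 49.9 CPM, and cardiomyocyte markers at 73.1 to 237, 71.5 to 156 and 56.2 to 93.4 CPM. Their part in the levels of the T and NK cell genes was not tested. In bulk RNA of a sort, fewer cells of a type and less RNA per cell cannot be told apart.

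**Figure D5:**
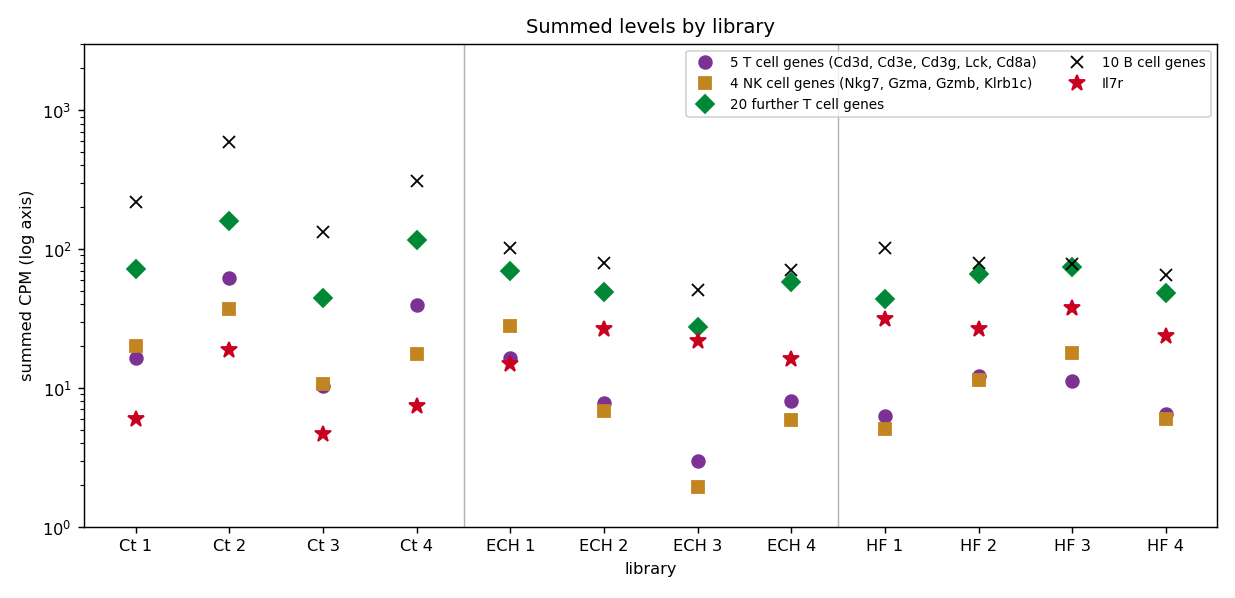
Summed CPM (vertical log axis) in each of the 12 libraries for 5 T cell genes, 4 NK cell genes, 20 further T cell genes and 10 B cell genes, and the CPM of Il7r. The T, NK and B cell sums are highest in Ct 2, at 62.1, 36.8 and 589.6 CPM, while Il7r is highest in HF 3, at 37.5 CPM.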

How the data were processed

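RNA of CD14/CD64-positive cardiac Mφ was measured in 12 libraries, 4 each of Ct, ECH and HF as given by the sample labels. The authors made cDNA with SMART-Seq v4, sequenced it in pairs, used Trimmomatic for trimming, TopHat2 for alignment to mm10 and featureCounts for counting, and the deposited files hold raw counts per gene symbol. For the versions, the annotation and the strand setting, nothing was given in the sources used here. The kit marks neither strand nor molecules, so a limit set from a count of 0 (taken as 3 counts) holds for counting error alone.

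Counts were filtered with filterByExpr by group (14608 genes), scaled by TMM and fitted with 1 mean per group over all 12 libraries by the quasi-likelihood method of edgeR 4.0.16 in R 4.3.3 (common dispersion 0.370, biological coefficient of variation 60.8%). FDR is Benjamini-Hochberg over all genes tested. Correlations used log2 CPM with a prior count of 2. Exon lengths and gene positions were from GENCODE M21 of GRCm38, and promoters from RefSeq. The code was tested on simulated data. Figures were drawn with matplotlib 3.10.9.

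Members and lists were chosen with earlier results of these data known. Named were all 10 members, list genes called in any comparison and the 4 of each list with the highest mean CPM, and the 8 genes closest to the CD3 mean. Genes named from counts at an unadjusted p or by DESeq2, and Il7, Klrg1 and Fcmr, were chosen after their values were seen. Some genes of the lists are not reported here by name. Alternatives were RLE scaling, DESeq2 1.42.0, other filters, no fold threshold, a replicate block, a term for the inferred library set, fits within a set, and libraries left out. The sample labels state no pairing of mice by replicate number.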

Additional observations from a re-analysis of the deposited data

Results flagged for a closer look

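Gzmb in the ECH group was the only 1 of 30 combinations of gene and group in which a single library stood apart from the other 3 by Dixon's criterion, which chance meets in about 1 of 20. ECH 1 held 8.80 CPM, against 0.718 to 2.04 CPM in ECH 2 to 4, a gap of 0.836 of the range of the group, just above the critical value for 4 libraries. Without ECH 1 the log2 fold change of Gzmb against Ct was -1.43 in place of -0.06. ECH 1 was also the highest ECH library for Nkg7, Gzma and Klrb1c.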

How the results depend on the processing

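The log2 fold changes of Cd3d, Cd3e, Cd3g, Lck and Klrb1c stayed below 0 and that of Il7r above 0 against Ct, for both ECH and HF, under all alternatives run, although the fit with a term for the inferred set put Klrb1c at -0.02 and Cd3g at -0.40 for HF against Ct. Over the alternatives and the 10 genes, the sign changed in 11 of 200 values for ECH against Ct, in 6 of 190 for HF against Ct and in 37 of 200 for HF against ECH. RLE scaling, no filter beyond 1 count and no fold threshold left the counts of members called at 0. Each scaling moved the median of all genes by less than 0.1.

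DESeq2 called 1 member, 2 T cell list genes, 1 IL-7 receptor pathway gene and 248 genes in all for ECH against Ct, 2 members, 2 T cell list genes and 337 genes in all for HF against Ct, and 47 genes in all for HF against ECH. Keeping genes above 1 CPM in at least 4 libraries gave 1 IL-7 receptor pathway gene (Tslp) for ECH against Ct, of 64 genes called in all. The inferred library set as a covariate gave 22, 208 and 272 genes in all in the order ECH against Ct, HF against Ct and HF against ECH, beside 52, 55 and 0. It gave 1 member (Gzma), 2 IL-7 receptor pathway genes (Bcl2 and Il2rg) and a median of the members of 0.34 for HF against Ct, and 1 member (Gzma), 1 NK cell list gene (Xcl1) and 1 IL-7 receptor pathway gene (Bcl2) for HF against ECH. Within set A 1 gene in all was called, and within set B 370, with 1 member (Gzma), 1 NK cell list gene (Xcl1) and 2 IL-7 receptor pathway genes (Bcl2 and Cish). Without Ct 2 and HF 1, 1 member (Il7r) was called in ECH and 1 (Il7r) in HF against Ct, of 51 and 44 genes called in all. The cause of these differences was not tested.

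With the replicate number as a block, 22 genes were called for ECH against Ct and 18 for HF against Ct, and 0 members. The deviations of the 12 same-numbered pairs correlated at -0.07 to 0.07 and 0 of them above 0.1. They show no shared deviation, but cannot tell whether mice were paired in some weaker way.

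With each library left out in turn, the members called ranged from 0 to 1 for ECH and for HF against Ct, the 1 being Il7r without Ct 2, and were 0 to 0 for HF against ECH. All genes called ranged from 11 to 95, from 15 to 103 and from 0 to 0 in that order, and the median of the members from -1.98 to -0.95, from -1.42 to -0.82 and from -0.27 to 0.78. The T cell, NK cell and IL-7 receptor lists stayed at 0. The median rho of the 9 genes was 0.67 to 0.72 without Ct 2, HF 1 or both, and that of Il7r with them -0.35 to -0.31. Against Ct the standard errors were largest for Gzma, Gzmb and Klrb1c, at 1.12 to 1.18 on the log2 scale.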
